A study of Homo sapiens with 27 samples.

Results

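The guidance genes described here code for the ephrins and their EPH receptors, the semaphorins with their plexin and neuropilin receptors, the SLIT ligands with their ROBO receptors, and the netrins with their UNC5 receptors. They were matched by gene symbol in the annotation of the array's probes, and this choice was made with earlier results of these data known. Of 69 such genes on the array, 55 had a probe detected (detection p-value below 0.01) on at least 2 of the 27 arrays, among 13572 genes measured in all. The probe with the highest mean signal stood for its gene. The remaining symbols, EFNA2, EFNA3, EFNA5, EPHA5, EPHA6, EPHA7, NTNG1, NTNG2, PLXNB3, PLXNC1, ROBO4, SEMA3D, SEMA3G and SLIT1, were detected on 0 or 1 array and have no values here. Of the 55 genes, 23 were detected on all 27 arrays, and between 34 and 47 were detected per array.

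Guidance cues are best known for steering axons in the developing nervous system, where a growth cone is drawn to or repelled by a ligand that its receptors read. Ephrins stay on the cell surface and signal to EPH receptor tyrosine kinases on a touching cell, and the same pairs set tissue boundaries in the embryo, with EFNB2 marking arteries and EPHB4 veins. Semaphorins signal through plexins, with neuropilins as co-receptors of the secreted SEMA3 class, SLIT proteins through ROBO receptors, and netrins through DCC, neogenin and UNC5 receptors. In the mouse several of these genes act in the heart, among them Sema3c and Plxna2 in the outflow tract and Slit and Robo genes in the heart tube.

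The cells were HuES6, an established human embryonic stem cell line, taken towards cardiac cells in 2 time courses with 1 array per day and arm. During the first 24 hours every differentiating culture was given CHIR00921 at 1 µM together with the growth factors BMP4 (1 ng/ml) and FGF2 (10 ng/ml), with insulin present on day 0 and absent later. IWP-2 blocks Porcupine, the enzyme that readies WNT proteins for secretion; time course 1 had it on days 2 and 3, time course 2 on days 1 and 2, and the labels give its dose without a number. Days 0, 1, 2, 3, 4, 5, 6 and 8 were sampled without inhibitor and days 3, 4, 5, 6 and 8 with it in both time courses, and day 2 with inhibitor was sampled in time course 2 only. The inhibitor arms of both time courses were pooled in the main comparisons, and the window of addition and the time course cannot be told apart. The labels do not say whether days or time courses came from different cultures, and the p-values therefore describe variation among these arrays that may be technical. The labels also place 2 arrays, those of days 3 and 6 with IWP-2 in time course 1, in a further series.

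Detected probes numbered 16424 to 19784 on an array, and pairs of arrays that shared a day and an arm had correlations across probes, which are not independent replicates, from 0.969 to 0.989. Mean signals ran from 293.1 to 349.5, except 225.2 on the IWP-2 array of day 8 in time course 2. On day 0 all 9 measured pluripotency markers were detected on both arrays, with a mean level between 11.53 and 11.70, and by day 2 without inhibitor 8 of 8 mesoderm markers had risen. Levels here are log2 normalized intensities of 1 probe, and no level of a gene was set against that of another gene. The lowest level of a detected probe lay between 4.72 and 5.13 depending on the array. The numbers of arrays, 27 in all and 2 per day and arm, limit the precision. RNA came from whole cultures, so that fewer cells of a type and less RNA per cell cannot be told apart.

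**Figure D1:**
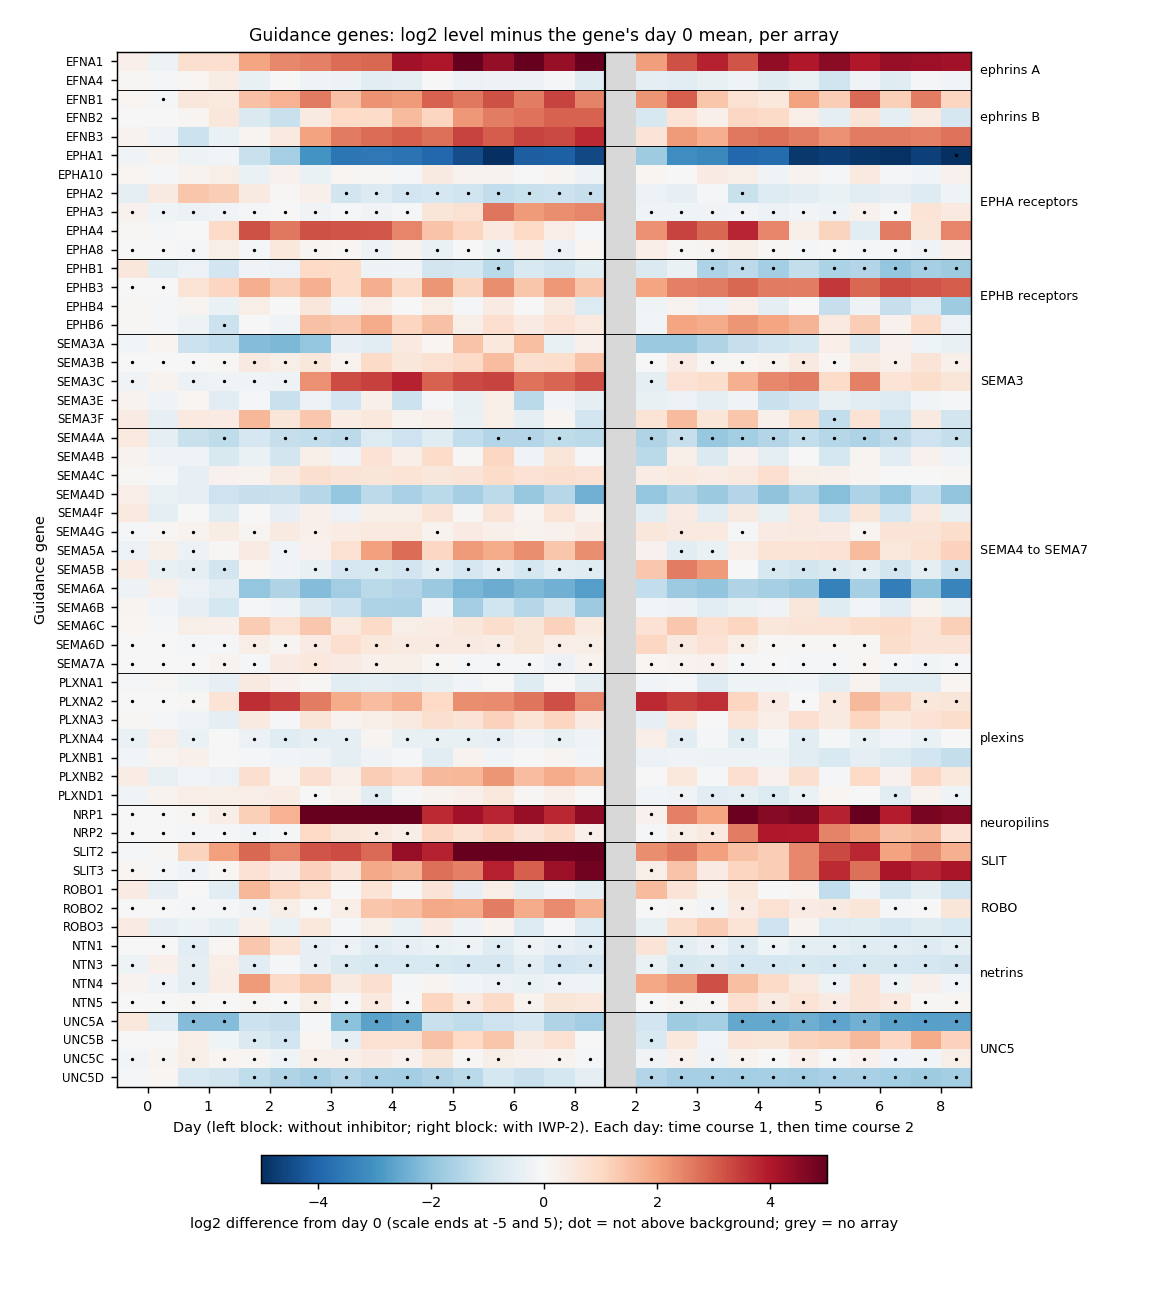
Level of each of the 55 guidance genes on each array, as the log2 difference from the gene's mean on day 0 (colour; the scale ends at -5 and 5), with families in blocks, days without inhibitor on the left and with IWP-2 on the right, time course 1 before time course 2 within a day; dots mark arrays where the probe was not above background and grey marks day 2 of time course 1, which has no IWP-2 array. EFNA1, EFNB3, SLIT2, SLIT3 and NRP1 turn red over the days and EPHA1 and SEMA6A blue in both arms, while EFNB2 and EPHA3 are red on the last days without inhibitor.

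Promoters of 4 guidance genes on which the comparisons below turn are shown to place them on the genome. On days 6 and 8 EFNB2 and SLIT2 lay furthest below the arm without inhibitor, and EPHB3 furthest above it. These are differences between arms, and SLIT2 still rose from day 0 with IWP-2. PLXNA2 rose at induction and was lower with IWP-2 on days 6 and 8. Each line holds 300 bases, from 250 before to 50 after the annotated start, 5′ to 3′ on the gene's strand, from RefSeq on GRCh38.p14. EFNB2 is at chr13:106535613-106535912 (minus strand), SLIT2 at chr4:20251655-20251954 (plus), EPHB3 at chr3:184561535-184561834 (plus) and PLXNA2 at chr1:208244335-208244634 (minus). Capitals mark a match on either strand to the motif CTTTGAA, the motif CTTTGAT, the motif CTTTGTA or the motif CTTTGTT, the core motifs of TCF and LEF factors, which act downstream of WNT. The 4 motifs differ only in their last letters, so no position on a strand can match more than 1 of them.
EFNB2: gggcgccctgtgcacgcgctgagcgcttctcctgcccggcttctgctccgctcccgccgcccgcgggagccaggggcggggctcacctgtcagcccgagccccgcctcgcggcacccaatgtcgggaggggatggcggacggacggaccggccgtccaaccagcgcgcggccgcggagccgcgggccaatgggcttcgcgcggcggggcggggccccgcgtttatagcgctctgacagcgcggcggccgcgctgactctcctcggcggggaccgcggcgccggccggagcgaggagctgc
SLIT2: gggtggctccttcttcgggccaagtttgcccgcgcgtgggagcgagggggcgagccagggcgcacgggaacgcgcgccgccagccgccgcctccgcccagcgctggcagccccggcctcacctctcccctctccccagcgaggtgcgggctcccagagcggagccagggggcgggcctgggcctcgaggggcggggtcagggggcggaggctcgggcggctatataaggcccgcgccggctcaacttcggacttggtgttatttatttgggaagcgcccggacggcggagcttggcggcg
EPHB3: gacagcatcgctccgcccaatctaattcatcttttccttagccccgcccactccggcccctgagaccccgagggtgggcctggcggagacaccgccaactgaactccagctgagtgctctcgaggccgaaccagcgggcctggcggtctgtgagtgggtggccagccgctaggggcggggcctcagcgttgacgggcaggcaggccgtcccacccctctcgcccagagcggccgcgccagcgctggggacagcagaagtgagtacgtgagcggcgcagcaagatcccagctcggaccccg
PLXNA2: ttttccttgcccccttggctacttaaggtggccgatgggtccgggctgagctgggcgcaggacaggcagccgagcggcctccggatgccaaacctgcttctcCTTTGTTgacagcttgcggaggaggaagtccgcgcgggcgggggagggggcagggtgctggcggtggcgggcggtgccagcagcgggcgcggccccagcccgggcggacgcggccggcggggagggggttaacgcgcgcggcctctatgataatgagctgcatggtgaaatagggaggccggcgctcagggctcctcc
PLXNA2 holds 1 match and the other 3 hold none. RefSeq promoters were found for 45 of the 55 genes, 71 in all, and 8 of them (11.3%) held a match, beside 4829 of all 35116 promoters of this length (13.8%). Among promoters of the genes that were lower with IWP-2 on days 6 and 8, 2 of 27 held a match, and among those of the genes that were higher, 1 of 4. A match is a description of letters in this window, and the absence of a match says only that these letters are not in it.

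The first question was what guidance genes did during induction, and day 2 without inhibitor was compared with day 0. Of the 55 genes 12 rose and 8 fell at an adjusted p under 0.05 (limma, Benjamini-Hochberg over all genes), beside 7.68% of all genes higher and 6.57% lower. The median difference was 0.07 on the log2 scale, and 0.0031 over all genes. Those that rose were 5 ephrin, SLIT and netrin ligands (EFNA1, EFNB1, SLIT2, NTN1 and NTN4) and 5 receptors (PLXNA2, EPHA4, EPHB3, NRP1 and ROBO1). SEMA3F and SEMA6C, 2 semaphorins, rose as well. The NTN1 probe was detected on only 5 arrays of the whole series, and its mean was highest on day 2 in both arms. A filter of at least 6 arrays removed NTN1. Of the 8 that fell, 5 were semaphorins (SEMA3A, SEMA4A, SEMA4B, SEMA4D and SEMA6A) and 3 were receptors (EPHA1, UNC5B and UNC5D).

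Among ligands, EFNA1, a GPI-anchored ephrin, had levels of 6.19 and 5.64 on day 0 (time course 1, then 2) and 7.88 and 8.31 on day 2, a rise of 2.18 ± 0.34 (SE, 2 arrays against 2, adjusted p = 0.000399). SLIT2, a secreted repellent, went from 5.54 and 5.63 to 8.44 and 8.01, a rise of 2.64 ± 0.56 (adjusted p = 0.00407). Both genes were higher on each day 2 array than on either day 0 array. Such separation of 2 arrays from 2 is likely in a called gene. Its share over all genes was not taken for comparisons with day 0. EFNB1, a transmembrane ephrin, rose by 1.61 ± 0.40, from 5.14 and 4.93, the latter not above background, to 6.52 and 6.77. The secreted netrin NTN4 rose by 1.53 ± 0.42 on its brighter probe, from 5.15 and 4.82, the latter not above background, to 7.10 and 5.93, while its second probe differed by 0.20 ± 0.25 and was not called. The second EFNA1 probe differed by 0.95 ± 0.31, short of the threshold (adjusted p = 0.0526).

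Among receptors, PLXNA2, a plexin that pairs with neuropilins, was not above background on day 0 (4.29 and 4.26) and stood at 7.95 and 7.75 on day 2. That is at least 7.47-fold higher (adjusted p = 8.51e-06), a bound set against the lowest detected level of each day 0 array or the probe's own value, whichever was higher. The second PLXNA2 probe rose by 1.85 ± 0.28. EPHA4, an EPH receptor that binds ephrins of both classes, rose by 2.91 ± 0.74, from 6.21 and 6.08 to 9.33 and 8.79. EPHB3, a receptor of ephrin-B ligands, was at least 2.09-fold higher and NRP1, the neuropilin that also binds VEGF, at least 1.77-fold higher. None of these receptors overlapped between the days, which their calls make likely. The second probe of NRP1 differed by 0.81 ± 0.47 and was not called.

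SEMA3A, a secreted semaphorin that repels axons through NRP1, fell by 2.20 ± 0.37, from 7.74 and 8.04 to 5.74 and 5.65 (adjusted p = 0.000763). The transmembrane semaphorin SEMA6A fell by 1.71 ± 0.47, from 11.41 and 11.95 to 9.75 and 10.19, and the receptor EPHA1 fell by 1.39 ± 0.30, from 10.01 and 10.37 to 9.06 and 8.53. SEMA4D fell by 1.13 ± 0.19, SEMA4A by 0.99 ± 0.24 and SEMA4B by 0.63 ± 0.19. All of these genes had lower levels on both day 2 arrays than on either day 0 array, which their calls make likely. The netrin receptors UNC5D and UNC5B were not above background on day 2, at least 1.97-fold and at least 1.22-fold lower than on day 0. The second UNC5B probe differed by -0.24 ± 0.23 and was not called. With 2 arrays against 2, 6 of the 20 calls held when any single array was left out: EFNA1, PLXNA2 and ROBO1, a SLIT receptor that rose by 1.37 ± 0.20, were higher, and SEMA3A, SEMA4D and UNC5D lower. Leaving out day 2 of time course 1 left 5 higher and 4 lower, and leaving out day 2 of time course 2 left 7 and 4. Leaving out either day 0 array left 6 higher, and 5 were lower when that of time course 2 was the one dropped. Without the time course as a block 8 were higher and 5 lower, and ROBO1 and SEMA4D were among the calls lost.

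Day 8 was then compared with day 0 in each arm. Without inhibitor 19 guidance genes were higher and 10 lower, beside 21.7% and 21.5% of all genes, and with IWP-2 16 were higher and 13 lower, beside 22.3% and 22.5%. In each arm 52.7% of the guidance genes were called in either direction, beside 43.2% of all genes without inhibitor and 44.8% with it. Medians were 0.11 and 0.028, and -0.0055 and -0.011 over all genes. The comparisons share their day 0 arrays, so values of the arms are given side by side.

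Several SLIT and ephrin ligands rose in both arms. SLIT2 stood at 10.51 and 10.67 on day 8 without inhibitor, a rise of 5.00 ± 0.56, and at 7.95 and 7.34 with IWP-2, a rise of 2.07 ± 0.56. EFNA1 rose by 4.82 ± 0.34 to 10.26 and 11.20 without inhibitor and by 4.24 ± 0.34 to 10.21 and 10.11 with it. In both genes every day 8 array lay above both day 0 arrays, which their calls make likely. SLIT3, a further SLIT ligand, was not above background on day 0 (4.60 and 4.44) and reached 8.80 and 9.33, at least 17.3-fold higher, and 8.35 and 8.60 with IWP-2, at least 11.5-fold higher. All 3 ephrin-B ligands rose without inhibitor: EFNB3 by 3.52 ± 0.24, EFNB2 by 2.96 ± 0.44 and EFNB1 by 2.94 ± 0.40. With IWP-2 EFNB3 rose by 2.62 ± 0.24 and EFNB1 by 1.82 ± 0.40, while EFNB2 differed from day 0 by -0.19 ± 0.44 and was not called. SEMA3C, a secreted semaphorin, rose by 3.07 ± 0.52 to 7.96 and 8.23 without inhibitor, and differed by 0.74 ± 0.52 with it.

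Among receptors, NRP1 was not above background on day 0 (4.31 and 4.30). It reached 8.08 and 8.78 without inhibitor, at least 11.2-fold higher, and 9.06 and 8.88 with IWP-2, at least 16.2-fold higher. Its second probe rose by 2.10 ± 0.47 with IWP-2 and differed by 0.80 ± 0.47 without inhibitor, which was not called (adjusted p = 0.188). EPHB3 was at least 2.48-fold higher without inhibitor and, at 7.63 and 7.53, at least 6.20-fold higher with it. The brightest NRP2 probe was not above background on day 0 and at least 1.52-fold higher with IWP-2, whereas its other probes went the other way, with -0.98 ± 0.18 called and -0.31 ± 0.42 and -0.30 ± 0.28 not called. UNC5B, a netrin receptor of vessels and axons, rose by 1.49 ± 0.24 with IWP-2 and differed by 0.39 ± 0.24 without inhibitor. EPHA3, ROBO2 and PLXNA2, all not above background on day 0, were at least 3.76-fold, 2.88-fold and 4.51-fold higher without inhibitor, and the second PLXNA2 probe differed by 0.71 ± 0.28 and was not called (adjusted p = 0.055).

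EPHA1 fell in both arms, from 10.01 and 10.37 on day 0 to 6.10 and 5.66 without inhibitor and 5.52 and 4.86 with it, the last not above background. It fell by 4.31 ± 0.30 without inhibitor and fell by 5.00 ± 0.30 with it. SEMA6A differed by -2.58 ± 0.47 and -2.69 ± 0.47, SEMA4D by -1.91 ± 0.19 and -1.59 ± 0.19, and SEMA4A by -1.31 ± 0.24 and -1.10 ± 0.24, all called in both arms. UNC5A, at 7.42 and 6.38 on day 0, came down to 5.41 and 5.17 without inhibitor (-1.61 ± 0.38) and was not above background with IWP-2, at least 3.87-fold lower. EPHB1 and UNC5D were not above background with IWP-2 either, at least 2.33-fold and 1.99-fold lower. EPHB4, the receptor that pairs with EFNB2, fell with IWP-2 by 1.23 ± 0.23 and differed by -0.11 ± 0.23 without inhibitor. SEMA6B fell by 1.38 ± 0.30, EPHA2 was at least 1.80-fold lower and the netrin NTN3 at least 1.25-fold lower without inhibitor. NTN3 was also called lower with IWP-2, with a fitted difference of -0.89 in each arm. It was detected on only 3 of the 27 arrays, its mean was highest on day 0, and a filter of at least 6 arrays removed it. Leaving out any single array kept 22 of the 29 calls without inhibitor and 17 of the 29 with IWP-2.

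Over all days without inhibitor, 40 of the 55 genes changed (any difference among the 8 days, adjusted p under 0.05), beside 52.9% of all genes. Those that did not pass were EFNA4, EPHA8, EPHA10, EPHB4, NRP2, PLXNA1, PLXNA4, PLXNB1, PLXND1, ROBO3, SEMA3E, SEMA4F, SEMA4G, SEMA7A and UNC5C. The day of the highest mean was day 0 for 11 genes, day 1 for 3, day 2 for 9, day 3 for 6, day 4 for 6, day 5 for 5, day 6 for 9 and day 8 for 6. No day held most of these peaks, but the counts include the genes that did not pass, whose highest day may be noise. The days of the highest mean were not counted over all genes. With IWP-2 the counts from day 2 on were 14 on day 2, which rests on 1 array, then 11, 9, 4, 3 and, on day 8, 14. EPHA4, for example, was high from day 2 to day 4 without inhibitor (8.58 to 9.35) and back at 6.47 and 6.05 on day 8, where it differed from day 0 by 0.11 ± 0.74. EPHA3 was not above background from day 0 to day 4 and then rose through 5.07 and 5.26 on day 5 to 6.79 and 6.93 on day 8.

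**Figure D2:**
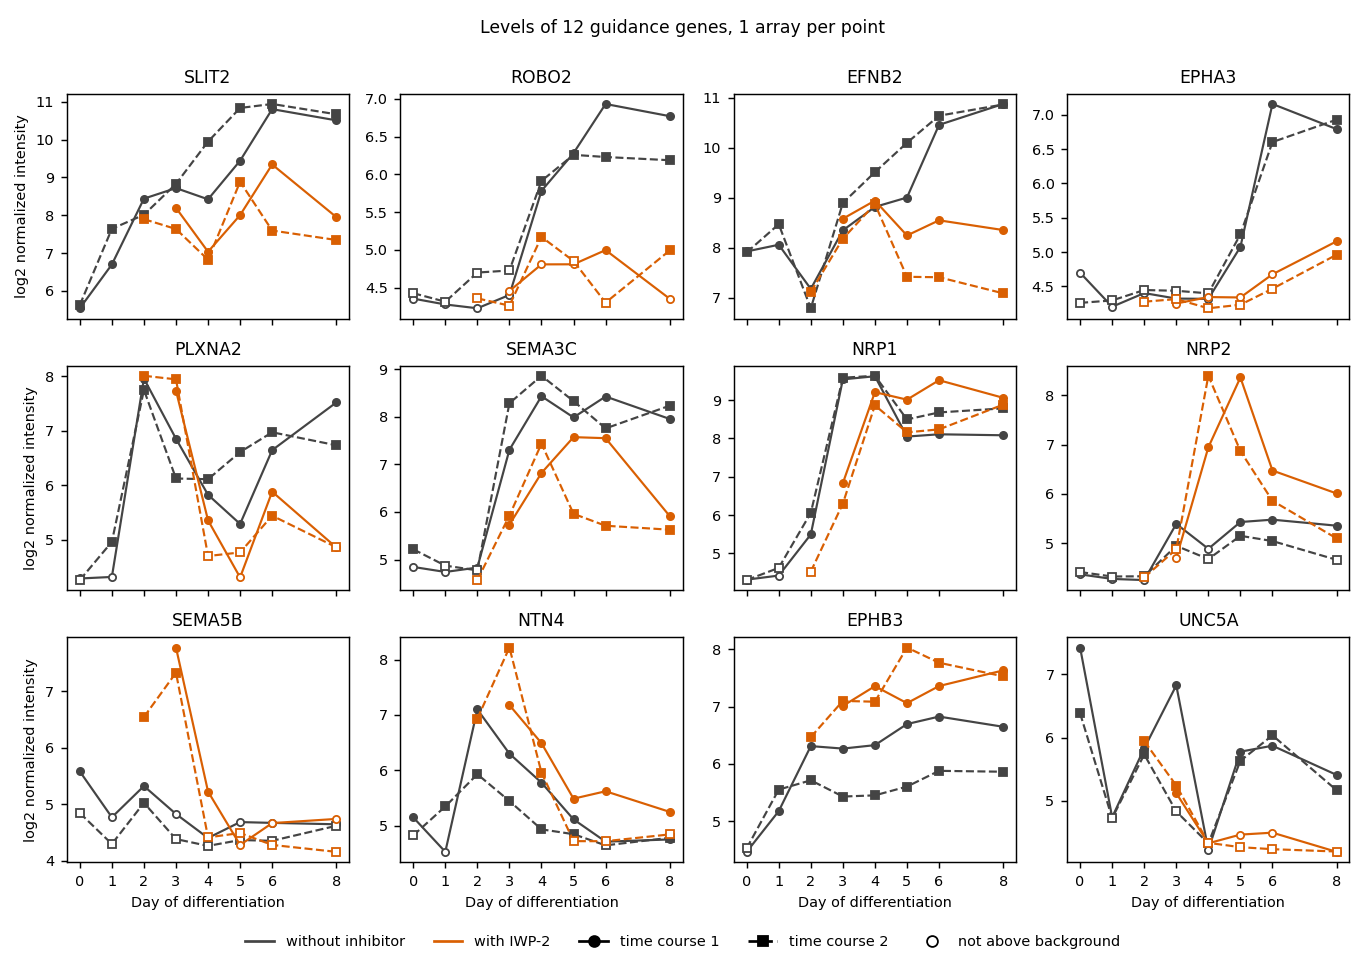
Levels (log2 normalized intensity, y axis, its range set for each gene) of 12 guidance genes by day of differentiation (x axis), 1 array per point; grey lines are without inhibitor and orange with IWP-2, solid lines and circles are time course 1, dashed lines and squares time course 2, and open symbols were not above background. NRP1 with IWP-2 is at 6.83 and 6.30 on day 3 against 9.54 and 9.58 without. Its mean differences are -0.59 on day 4 and 0.31 on day 5, whereas EFNB2, EPHA3 and ROBO2 are well apart on days 6 and 8.

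The early difference made by IWP-2 was taken over days 3 and 4, 4 arrays in each arm. Of the 55 guidance genes 5 were higher and 5 lower with IWP-2, beside 2.08% and 2.29% of all genes (4.37% in either direction). The median was -0.06, and 0.021 over all genes. Those lower were the neuropilin NRP1, the ligands SEMA3C and SLIT2, the receptor EPHB1 and SEMA5A. Those higher were SEMA5B, the netrin NTN4, the receptors EPHB3 and NRP2, and SEMA6B. On each of these genes both time courses moved the same way, which a call on the pooled difference makes likely. Of all 55 guidance genes 38 had the same sign in both time courses, and the share over all genes was not taken. In 4 guidance genes every array with IWP-2 lay below every array without, and in 3 above, beside 2.76% and 3.93% of all genes.

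NRP1 stood at 6.83 and 6.30 on day 3 with IWP-2 (time course 1, then 2) against 9.54 and 9.58 without, and at 9.21 and 8.86 on day 4 against 9.62 and 9.63. All 4 arrays with IWP-2 lay below all 4 without, most widely on day 3. The difference over both days was -1.79 ± 0.26 (SE, 4 arrays against 4, adjusted p = 0.000635), and -2.04 ± 0.33 on the second probe. In time course 2, the only one sampled with inhibitor on its second day, NRP1 was at 4.52, not above background, beside 6.06 without, with no test. SEMA3C was at 5.73, 5.92, 6.82 and 7.44 with IWP-2 (days 3 and 4, time course 1 then 2 in each) and 7.31, 8.29, 8.43 and 8.86 without, a difference of -1.74 ± 0.37 (adjusted p = 0.0101). The arms overlapped by day 4 with IWP-2 against day 3 without, and within a day they did not.

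EPHB1, a receptor of ephrin-B ligands, was at 5.84, 4.62, 4.87 and 4.48 with IWP-2, above background on 1 of these arrays, and at 7.16, 7.10, 5.91 and 5.99 without. The difference was -1.59 ± 0.24 (adjusted p = 0.000748), with no overlap. SLIT2 was at 8.19, 7.64, 7.03 and 6.82 with IWP-2 and 8.72, 8.83, 8.42 and 9.95 without, again with no overlap, and differed by -1.56 ± 0.40 (adjusted p = 0.0328). SEMA5A, a transmembrane semaphorin, was at 4.44, 4.66, 5.31 and 5.70 against 5.21, 5.77, 7.06 and 7.79. Its day 3 arrays with IWP-2 were not above background, so that the fitted difference of -1.43 ± 0.26 (adjusted p = 0.00393) rests in part on values at background. Its second probe differed by -0.95 ± 0.27 and was not called (adjusted p = 0.06).

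SEMA5B, the close relative of SEMA5A, went the other way. With IWP-2 it was at 7.77 and 7.33 on day 3 and 5.23 and 4.41 on day 4, while without inhibitor no array of these days was above background. It was at least 2.35-fold higher over both days (adjusted p = 2.87e-06), and on day 2 of time course 2 it was at 6.54 with IWP-2 and 5.03 without. From day 5 on its signal stayed at background in both arms. Its highest values were those of days 2 and 3 with IWP-2.

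NTN4 with IWP-2 was at 7.18, 8.22, 6.49 and 5.96, against 6.30, 5.44, 5.77 and 4.93 without. Within each time course and day the level with IWP-2 was the higher. The difference was 1.35 ± 0.29 (adjusted p = 0.0125) on this probe and 0.56 ± 0.18 on the second, which was not called (adjusted p = 0.101). EPHB3 was at 7.01, 7.10, 7.36 and 7.09 against 6.27, 5.43, 6.33 and 5.45, with no overlap and a difference of 1.27 ± 0.28 (adjusted p = 0.0155). SEMA6B was at 6.49, 6.18, 6.42 and 6.59 against 6.04, 5.70, 5.20 and 5.18, a difference of 0.89 ± 0.21 (adjusted p = 0.0238). NRP2, the neuropilin of veins and lymphatic vessels, was not above background on day 3 with IWP-2 and reached 6.95 and 8.40 on day 4. Without inhibitor it was at 4.89 and 4.68 on day 4, not above background. Only 2 of 4 arrays in each arm were above background, those of day 4 with IWP-2 and those of day 3 without. NRP2 was thus higher with IWP-2 on day 4 only. The fitted difference over both days, 1.25 ± 0.31 (adjusted p = 0.027) on the brightest probe, rests in part on values at background. The other 3 probes of NRP2 differed by 0.07, 0.17 and 0.85 and were not called.

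Leaving out any single array kept 4 of these 10 calls, those of NRP1, EPHB1, SEMA5A and SEMA5B. The number higher was 1 without either day 3 array of time course 2, 2 without either day 4 array of time course 2, and 3 without the day 3 or the day 4 array of time course 1 in the arm without inhibitor. The number lower was 3 without the day 4 array with IWP-2 of time course 1 or that without inhibitor of time course 2.

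Late in the course, on days 6 and 8, the arms differed more widely. With IWP-2 20 guidance genes were lower and 5 higher, beside 18% of all genes lower and 17% higher (35% in either direction). The median was -0.14, and -0.018 over all genes. The genes lower were all 3 ephrin-B ligands with the receptors EPHB1, EPHB4 and EPHA3, SLIT2 with ROBO1 and ROBO2, SEMA3A, SEMA3B and SEMA3C with PLXNA2, PLXNB1 and PLXNB2, SEMA4B, SEMA4C and SEMA5A, and UNC5A and UNC5D. The genes higher were EPHB3, EPHA2, SEMA6B, SEMA4G and UNC5B. In 15 genes every array with IWP-2 lay below every array without, and in 3 above, beside 12% and 12.9% of all genes.

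**Figure D3:**
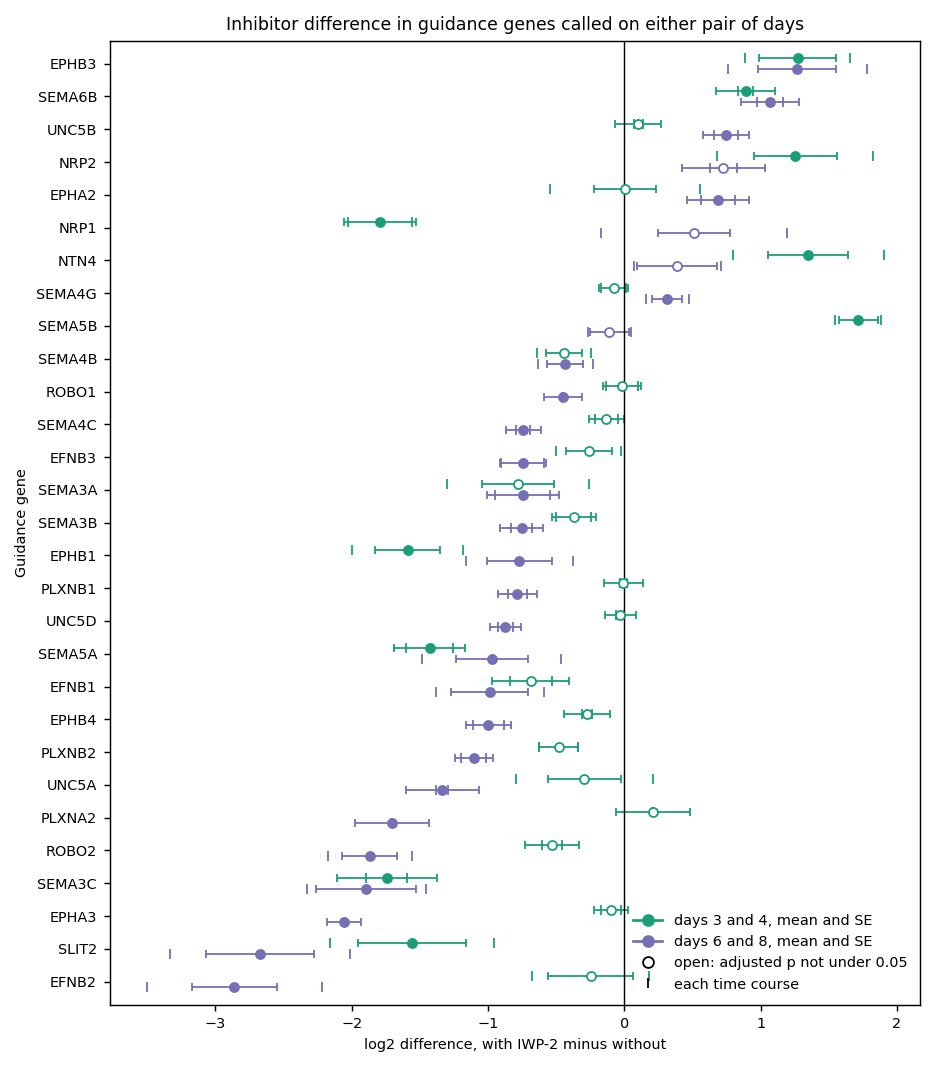
Difference between arms (log2, with IWP-2 minus without, x axis) for the 29 guidance genes called on either pair of days (y axis); points with bars are the mean and SE over 4 arrays against 4, green for days 3 and 4 and purple for days 6 and 8, open where the adjusted p was not under 0.05, and short ticks are each time course. The purple points reach -2.86 for EFNB2 and 1.27 for EPHB3, and NRP1 and SEMA5B have large green differences with no purple call.

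Among ephrins, EFNB2 was at 8.55, 7.41, 8.35 and 7.09 with IWP-2 (days 6 and 8, time course 1 then 2 in each) and 10.46, 10.64, 10.88 and 10.87 without. The 4 arrays with IWP-2 lay below the others by a wide margin, more so in time course 2. The difference was -2.86 ± 0.31 (SE, 4 arrays against 4, adjusted p = 3.77e-06). EFNB1 differed by -0.99 ± 0.28 with overlapping arms, and EFNB3 by -0.75 ± 0.17 with none. EFNB3 was still high with IWP-2, between 10.21 and 10.39 on days 6 and 8 against 10.71 to 11.43 without.

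Among EPH receptors, EPHA3, which binds A-class ephrins, was at 4.68, 4.47, 5.16 and 4.96 with IWP-2, above background on the day 8 arrays only, and at 7.16, 6.60, 6.79 and 6.93 without. The difference was -2.05 ± 0.13 (adjusted p = 1.44e-08), with -2.06 in time course 1 and -2.05 in time course 2. EPHB4, the receptor of EFNB2 in veins, fell by 1.00 ± 0.17, and the arms overlapped, with 7.41 on the day 8 array of time course 2 without inhibitor. EPHB1 was not above background with IWP-2, at least 1.27-fold lower. EPHB3 was at 7.36, 7.77, 7.63 and 7.53 with IWP-2 and 6.83, 5.88, 6.65 and 5.86 without, a difference of 1.27 ± 0.28 (adjusted p = 0.00231) and no overlap. EPHA2 was not above background without inhibitor and at least 1.30-fold higher with it.

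In the SLIT and ROBO families, SLIT2 was at 9.34, 7.59, 7.95 and 7.34 with IWP-2 and 10.80, 10.94, 10.51 and 10.67 without. The arms did not overlap, and the difference was -2.67 ± 0.40 (adjusted p = 6.82e-05). Its receptor ROBO2 was at 5.00, 4.30, 4.35 and 4.99 with IWP-2, above background on 2 of 4 arrays, and 6.93, 6.23, 6.77 and 6.19 without. That difference was -1.87 ± 0.20 (adjusted p = 3.25e-06), and -1.03 ± 0.19 on the second probe. ROBO1 differed by -0.45 ± 0.14 with overlapping arms. SLIT3 did not move with its relative: at 7.29, 8.60, 8.35 and 8.60 with IWP-2 and 8.40, 7.50, 8.80 and 9.33 without, it differed by -0.30 ± 0.32 and was not called.

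Among semaphorins and their receptors, SEMA3C was at 7.55, 5.71, 5.91 and 5.63 with IWP-2 and 8.43, 7.76, 7.96 and 8.23 without, a difference of -1.89 ± 0.37 (adjusted p = 0.000735) with no overlap. PLXNA2 was at 5.88 and 5.44 on day 6 and not above background on day 8 (4.86 on both arrays) with IWP-2, against 6.64, 6.97, 7.52 and 6.73 without. It differed by -1.70 ± 0.27 (adjusted p = 0.000133) on the brighter probe and by -0.55 ± 0.20 (adjusted p = 0.046) on the second. PLXNB2, a receptor of SEMA4 semaphorins, was at 8.25, 7.45, 8.30 and 7.79 against 9.47, 8.80, 9.10 and 8.84, a difference of -1.11 ± 0.14 (adjusted p = 1.72e-05). No array of these genes with IWP-2 reached the lowest array without. PLXNB1, the receptor of SEMA4D, differed by -0.79 ± 0.14, SEMA3B and SEMA3A by -0.75 each, with SE of 0.16 and 0.26, SEMA4C by -0.74 ± 0.13 and SEMA5A by -0.97 ± 0.26. The second SEMA5A probe differed by -0.63 ± 0.27 and was not called (adjusted p = 0.0832). SEMA6B was higher, at 6.61, 6.18, 6.91 and 6.42 against 5.74, 5.34, 5.83 and 4.92, a difference of 1.07 ± 0.21 (adjusted p = 0.000945).

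Of the netrin receptors, UNC5A was at background on all 4 arrays with IWP-2 and at 5.87, 6.03, 5.41 and 5.17 without, so that it was at least 1.66-fold lower (adjusted p = 0.000988). UNC5D likewise was at least 1.17-fold lower. UNC5B was higher, at 6.87, 6.27, 7.10 and 6.38 against 6.66, 5.69, 6.00 and 5.29, by 0.75 ± 0.17 (adjusted p = 0.00237) with overlapping arms. The receptors of this family thus did not move together. None of the 4 measured netrins was called on these days, and NTN1, NTN3 and NTN4 were at or near background on most of these arrays.

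Leaving out any single array kept 17 of the 25 late calls, 3 higher and 14 lower. The number lower ranged from 16 to 21, and the number higher fell to 3 without either day 8 array of the arm without inhibitor, without the day 6 array of time course 2 in that arm, or without the day 8 array with IWP-2 of time course 2. Calls lost when an array was left out were those of EFNB1, EPHA2, EPHB1, ROBO1, SEMA3A, SEMA4B, SEMA4G and SEMA5A.

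Markers of other cells were also counted, beside 35% of all genes called on days 6 and 8. All of the cardiomyocyte and of the fibroblast and smooth muscle markers were called. The shares were 55.6% of pluripotency, 54.5% of neuron, 42.9% of endoderm, 40% of neuroectoderm and neural crest, 37.5% of mesoderm and 22.2% of endothelial markers. Of 11 cardiomyocyte markers all 11 were higher with IWP-2 on days 6 and 8, with a mean level on day 8 between 10.59 and 11.20 against 5.45 to 5.85 without. Of 10 fibroblast and smooth muscle markers 7 were lower and 3 higher, with day 8 means over the whole list of 7.49 to 8.36 against 10.63 to 11.01. The 7 lower were DCN, LUM, COL3A1, COL1A1, COL1A2, POSTN and PDGFRB. The 3 higher were the smooth muscle genes MYH11, TAGLN and CNN1, by 2.12, 1.31 and 2.42. Of 9 endothelial markers 2 were lower and 0 higher, with day 8 means of 5.43 to 6.80 against 6.83 to 7.13, and 3 of 7 endoderm markers were lower. Of 11 neuron markers 4 were higher and 2 lower, their mean level lay between 5.18 and 6.48 on all arrays, and MAPT and ELAVL3 were detected on 2 arrays each. Of 9 pluripotency markers 5 were lower with IWP-2 on days 6 and 8, of 8 mesoderm markers 2 were higher and 1 lower, and of 5 neuroectoderm and neural crest markers 2 were higher. On days 3 and 4, beside 4.37% of all genes, none of the cardiomyocyte, neuron, endoderm and pluripotency markers was called. On these days 1 endothelial marker was lower, and 2 fibroblast and smooth muscle markers were called in each direction. Of the mesoderm markers TBXT differed by -2.40 ± 0.24, EOMES by 1.53 ± 0.31 and HAND1 by -0.99 ± 0.22 on those days, and of the neuroectoderm and neural crest markers OTX2 by 1.65 ± 0.33 and SOX10 by 0.52 ± 0.14. The part of these cells in the guidance gene differences was not tested.

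**Figure D4:**
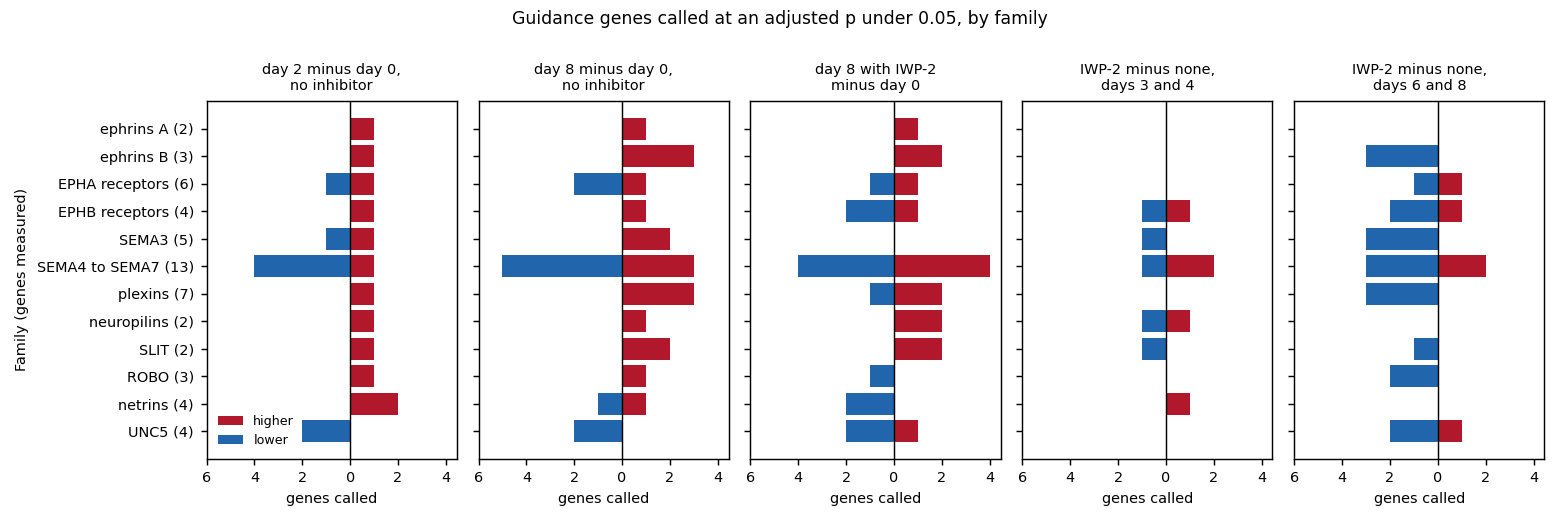
Number of guidance genes called at an adjusted p under 0.05 (x axis, higher in red to the right, lower in blue to the left) in each family (y axis, genes measured in brackets) for 5 comparisons. All 3 ephrin-B ligands are higher on day 8 without inhibitor and all 3 are lower with IWP-2 on days 6 and 8, while the 13 genes of SEMA4 to SEMA7 are called in both directions in every panel.

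Early and late differences were set against each other, since the pairs of days do not share arrays. Of the 10 genes called on days 3 and 4, 6 were also called on days 6 and 8 and all 6 kept their direction, which is 60% of the early calls and 24% of the late ones. These were EPHB1, SEMA3C, SEMA5A and SLIT2, lower on both, and EPHB3 and SEMA6B, higher on both. On days 6 and 8, 45.5% of the measured guidance genes and 35% of all genes were called. The share of early calls that were also called late was not taken over all genes. The difference itself, late minus early, was called for 12 of the 55 genes, 1 higher and 11 lower, beside 9.1% and 9.2% of all genes. EPHB3 showed a late minus early difference of -0.0021 ± 0.40, so that its interval allows a shift in either direction.

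NRP1 was the gene called higher: its IWP-2 difference went from -1.79 early to 0.51 ± 0.26 late, which was itself not called, a shift of 2.31 ± 0.37 (adjusted p = 0.000643) and of 2.90 ± 0.47 on the second probe. SEMA5B was called lower (adjusted p = 2.93e-05), but no size is given, since it was at background in both arms on days 6 and 8 and without inhibitor on days 3 and 4. EFNB2 shifted by -2.61 ± 0.44, EPHA3 by -1.96 ± 0.18, PLXNA2 by -1.91 ± 0.38 and ROBO2 by -1.34 ± 0.28. Their early differences were -0.25, -0.10, 0.21 and -0.53, none of them called, and EPHA3 was at background in both arms on days 3 and 4. On day 5, which lies between these pairs and had no test of its own, EFNB2 differed by -1.72, while EPHA3, PLXNA2 and ROBO2 were above background without inhibitor and not with it. The early value of PLXNA2 averages 1.35 on day 3 and -0.94 on day 4. The second probes of PLXNA2 and ROBO2 shifted by -0.39 ± 0.28 and -0.69 ± 0.27 and were not called. By array, PLXNA2 was at 7.73 and 7.94 on day 3 with IWP-2 and 6.85 and 6.12 without, and on day 4 at 5.35 and 4.70 with IWP-2, the latter not above background, and 5.82 and 6.11 without, so that the order of the arms turned between these days in both time courses. Of the 12 shifts 8 held when any array was left out, and those of EFNA1, EPHB4, PLXNB2 and SEMA4C did not. On the authors' processed values 6 of the 12 lost the call, those of EPHA3, PLXNA2, ROBO2, EFNA1, EPHB4 and PLXNB2. The number lower was 7 without the day 4 or day 6 array of time course 1 without inhibitor, the day 3 array of time course 2 without inhibitor or the day 6 array of time course 2 with IWP-2. The number higher was 4 without the day 6 array of time course 1 with IWP-2 and 2 without the day 3 array of that arm and time course, the day 6 array without inhibitor of either time course or the day 3 array without inhibitor of time course 2.

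Whether the IWP-2 difference varied between the time courses, which had different windows of addition, was tested over days 3 to 8. The difference between time courses was called for 1 guidance gene, lower, and 0 higher, beside 0.383% and 0.0958% of all genes (0.479% in either direction). Of the calls over all genes 20% were higher, and 31.1% were under median scaling. NRP1 differed between the arms by 0.05 in time course 1 and by -0.95 in time course 2, a gap of -0.95 ± 0.19 (adjusted p = 0.0426). The gap is measured against the offset between time courses over all 8 days without inhibitor, so it is not the plain difference of these values. The call was lost in 18 of the 27 omissions of a single array, those of any array without inhibitor after day 0 or of an IWP-2 array of day 5 or 6. Without any of the IWP-2 arrays of days 3 and 4, 3 guidance genes were lower. For NRP1 the gap on the second probe, -0.78 ± 0.33, was not called (adjusted p = 0.25). EFNB2 had a gap of -1.05 ± 0.25 that was not called (adjusted p = 0.064). EPHA4 had the widest gap on single days: with IWP-2 it was at 5.63 and 8.69 on day 6 and 6.74 and 8.59 on day 8, low in time course 1 and high in time course 2, against 6.65, 7.14, 6.47 and 6.05 without. Its gap over days 3 to 8 was 0.86 ± 0.56 and was not called.

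The other guidance genes of note were those that did not pass in either IWP-2 comparison. EFNA1 was high with and without inhibitor, with differences of 0.54 ± 0.24 early and -0.54 ± 0.24 late, neither called, and a shift of -1.08 ± 0.34 (adjusted p = 0.0386) that its second probe, at -0.64 ± 0.31, did not show past the threshold. EPHA1 differed by -0.06 ± 0.21 early and -0.48 ± 0.21 late, on top of its fall in both arms. EPHB6, an EPH receptor without kinase activity, differed by 0.57 ± 0.21 early (adjusted p = 0.168) and by -0.09 ± 0.21 late. ROBO3 was at 7.89 and 8.26 on day 3 with IWP-2 against 7.53 and 6.91 without, and differed over days 3 and 4 by 0.35 ± 0.22, not called. EFNA4, EPHA10, PLXNA1 and SEMA3E were detected on all 27 arrays with mean levels over days that spanned 0.74, 0.43, 0.81 and 0.63 without inhibitor. A p that misses the threshold does not show that these genes were alike in the arms.

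Genes that act with or behind the guidance receptors were taken from a list of 53, of which 44 were measured. With IWP-2, 3 of them were higher and 1 lower on days 3 and 4, and 6 were higher and 14 lower on days 6 and 8, with medians of -0.02 and -0.25. That is 9.09% and 45.5% of the list, beside 4.37% and 35% of all genes. Early, NGEF, an exchange factor behind EPHA4, was higher by 1.29 ± 0.17, NEO1 (neogenin, a netrin and RGM receptor) by 1.19 ± 0.15 and RGMA, a ligand of neogenin, by 0.64 ± 0.15, and FARP1, a partner of A-class plexins, was lower by 0.75 ± 0.17. Late, FLRT3, a ligand of UNC5 receptors, differed by -3.17 ± 0.57, MICAL1, an oxidoreductase behind plexins, by -1.71 ± 0.21, SRGAP3, a GTPase-activating protein behind ROBO, by -1.59 ± 0.24 and RGMA by -1.57 ± 0.15. RGMA was thus higher early and lower late, with a shift of -2.20 ± 0.21 (adjusted p = 9.71e-06), and NEO1 shifted by -1.50 ± 0.22. Furthest above the arm without inhibitor late were ABLIM1, an actin-binding protein (2.79 ± 0.21), MICAL2 (2.09 ± 0.29), DPYSL3, a collapsin response mediator (1.99 ± 0.21), and NRCAM, an adhesion molecule (0.92 ± 0.27).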

How the data were processed

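RNA of HuES6 cells was hybridised to 27 Illumina arrays, 13 from time course 1 and 14 from the other. Per the file headers, the deposited scanner table gives each probe a signal intensity and a detection p-value on every array; the submitters' processing notes name GenomeStudio without a version. For the authors' second table of processed intensity values no normalization is stated in labels or headers, and it served as an alternative. Its values are linear, with a median of 6.88 on every array of time course 1 and 4.63 on every array of the other, and the 22.7% below 0 were set to 0 before log2(value + 1). The deposited detection p-value was used as given.

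Intensities were background corrected (normexp, from the detection p-values), given an offset of 16, quantile normalized and taken to log2, all by the neqc function of limma (version 3.58.1; R version 4.3.3). Of 47323 probes, 30113 carried 1 gene symbol, 8 several, and 17202 were unnamed here. A total of 18435 named probes were detected, and the brightest per gene left 13572 genes. Array intensities carry no read depth, so the number of arrays limits precision.

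Linear models (lmFit, eBayes, 12 residual degrees of freedom) fitted the mean of every day in each arm, with time course as a block, since per the labels the arm without inhibitor served as control within its own time course. Deviations from group means correlated by 0.123 to 0.802 in 78 of 78 pairs of groups, all over 0.1. P-values were adjusted over all 13572 genes by the Benjamini-Hochberg method. The gap between time courses added an inhibitor by time course term for days 3 to 8. Members, gene lists and tests were chosen with earlier results of these data known. Genes were named where they ranked among the 8 largest called differences of a direction in a comparison, with 1 sign in both time courses, where they had the highest mean of their family, or, among the pathway genes, where they ranked among the first 4. Other guidance genes named with values were chosen after their values were seen. Alternatives covered the block, normalization, offset, filters, choice of probe, array weights, thresholds and each array left out.

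The model was tested on simulated data over 13572 genes with 200 changed. Group means were otherwise equal there and the noise was independent between arrays. Every comparison listed next called more than 200 genes in the data. The shares below therefore hold for the simulated setting and were not measured for the real tests. A log2 change of 1 was recovered in 55% of such genes for day 2 against day 0, in 82% for IWP-2 on days 3 and 4, in 77% for IWP-2 on days 6 and 8, in 50.5% for late minus early, and in 31% for any change over days.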

Additional observations from a re-analysis of the deposited data

Results flagged for a closer look

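The difference between the arms itself differed between days 3 and 4 and days 6 and 8 for 12 guidance genes, by a test of late minus early IWP-2 differences (limma, adjusted p under 0.05). The shift was -2.61 ± 0.44 for EFNB2, -1.96 ± 0.18 for EPHA3, which was at background in both arms on days 3 and 4, -1.91 ± 0.38 for PLXNA2, -1.34 ± 0.28 for ROBO2 and -1.08 ± 0.34 for EFNA1. The shift was -0.78 ± 0.20 for PLXNB1, -0.73 ± 0.23 for EPHB4, -0.62 ± 0.20 for PLXNB2 and -0.61 ± 0.18 for SEMA4C. For NRP1 it was 2.31 ± 0.37, the only shift upwards called among the guidance genes. For SEMA5B and UNC5D the fitted values of -1.83 and -0.85 give no size. SEMA5B was at background in both arms on days 6 and 8, and without inhibitor on days 3 and 4. UNC5D was at background in both arms on days 3 and 4, and with IWP-2 on days 6 and 8. The fitted shift of EPHA3 rests on days 6 and 8 alone, since its early values were at background.

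The IWP-2 difference over days 3 to 8 was lower in time course 2 than in time course 1 for NRP1, by -0.95 ± 0.19 (adjusted p = 0.0426). The time courses differ in the days on which IWP-2 was added, and the window of addition and the time course cannot be told apart.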

How the results depend on the processing

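Of 4531 values of called guidance genes under the alternatives other than the stricter thresholds, 4230 kept their direction and call, 300 lost the call and 1 reversed: NRP2 on day 8 with IWP-2, at -0.11 and not called with the mean over its probes. The time courses pair the arrays; without the replicate block the guidance genes higher and lower were 8 and 5 on day 2 (12 and 8 with it), 17 and 9 on day 8 without inhibitor, 13 and 10 on day 8 with IWP-2, 4 and 5 for IWP-2 on days 3 and 4, 4 and 16 on days 6 and 8, and 1 and 8 for late minus early, and 33 in place of 40 changed over the days; the gap between time courses was not fitted without it. On day 2 an adjusted p under 0.01 left 5 higher and 4 lower, and a 2-fold minimum left 5 lower. On day 8 with IWP-2 a 2-fold minimum left 9 higher. For IWP-2 on days 3 and 4 the authors' values left 2 higher, and an adjusted p under 0.01 left 1 higher and 3 lower. On days 6 and 8 an offset of 50, array weights or an adjusted p under 0.01 each left 3 higher, and a 2-fold minimum left 2 higher and 9 lower. For late minus early, median scaling gave 4 higher, an offset of 50 gave 2 higher, and the authors' values, an adjusted p under 0.01 or a 2-fold minimum each left 6 lower. The gap between time courses (1 lower) gave 0 lower with an offset of 50, the authors' values, no detection filter, the mean of a gene's probes, an adjusted p under 0.01 or a 2-fold minimum. Leaving out single arrays gave 5 to 12 higher and 4 to 9 lower on day 2, 17 to 19 and 8 to 11 on day 8 without inhibitor, 11 to 17 and 11 to 14 with IWP-2, 1 to 5 and 3 to 6 for IWP-2 on days 3 and 4, 3 to 6 and 16 to 21 on days 6 and 8, 1 to 4 and 7 to 12 for late minus early, 37 to 40 changed over the days, and 0 higher and 0 to 3 lower for the gap. Over all genes the calls on day 2 went from 1934 to 1177 and those for late minus early from 2483 to 1463 without the block. Those for IWP-2 on days 3 and 4 went from 593 to 351 without the block, 353 with the authors' values and 1110 with array weights. Those for the gap went from 65 to 26 with an offset of 50, 1 with the authors' values, 16 with no detection filter and 120 with array weights. Median scaling moved the median of all genes for day 8 without inhibitor from -0.0055 to -0.147. The cause of these differences was not tested. Probes near background, as for SEMA5B without inhibitor, give only bounds.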
